A study of Mus musculus with 12 samples.

Results

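The genes described here encode the enzymes that make, store and break down retinoic acid, the active acid form of vitamin A. They are 10 of the 19938 mouse genes measured, and they were chosen by name: the hydroxylases Cyp26a1, Cyp26b1 and Cyp26c1, the retinol and retinaldehyde dehydrogenases and reductases Rdh10, Rdh11, Dhrs3, Aldh1a1, Aldh1a2 and Aldh1a3, and the acyltransferase Lrat. All 10 were present on the array, each through 1 probe set annotated to that gene alone and all 10 were tested whatever their level.

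The study hybridised total RNA from 12 samples to 12 Affymetrix arrays, 3 in each of 4 groups that the labels call biological replicates. All samples derived from D3, a line of mouse embryonic stem (ES) cells, through a single clone, so the data describe 1 clone of that line. The ES group held undifferentiated cells at day 0, grown in serum-containing ES medium. The EB group held embryoid bodies at day 4, which are floating aggregates in which ES cells begin to differentiate, made in bacteriological dishes without the self-renewal factor LIF. The DMSO group held day 4 bodies exposed for 12 h to DMSO, the solvent, and the ATRA group held day 4 bodies exposed for 12 h to 5 micromolar all-trans retinoic acid (ATRA). Whether those 12 h fell within the 4 days or after them is not clear from the labels, so in DMSO against EB the solvent and the time cannot be told apart. EB against ES joins aggregation, loss of LIF and time.

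Retinol is the starting point of this pathway, and LRAT esterifies it for storage. RDH10 oxidises retinol to retinaldehyde, while DHRS3 runs the reaction back to retinol. The ALDH1A enzymes oxidise retinaldehyde irreversibly to retinoic acid, which binds nuclear retinoic acid receptors on DNA. CYP26 enzymes hydroxylate retinoic acid and so remove it. In vertebrate embryos Cyp26a1 and Dhrs3 are known to be induced by retinoic acid itself, a feedback that limits the signal.

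The deposited values were log2 array values between 2.3 and 14.74, with array medians between 7.76 and 7.86, and replicates of a group correlated with r between 0.992 and 0.997 across all probe sets. The list mean over 8 pluripotent cell markers was 12.76 to 12.79 in ES and 12.74 to 12.80 in EB. Single markers did differ at a limma adjusted p below 0.05, against 17.8% of all genes higher and 16.9% lower. Sox2 (log2 difference 0.32) and Dppa5a (0.24) were higher in EB, and Klf4 (-0.52) was lower. All 12 endoderm markers on the list were higher in EB than in ES, and 8 of 10 fibroblast markers were lower, so the EB group differed from ES in markers of other cell types as well as in age. In bulk RNA of this kind, fewer cells of a type and less RNA per cell cannot be told apart. A probe set's level is not comparable with that of another probe set, so levels are set side by side only between groups for 1 gene.

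After ATRA, the reductase gene Dhrs3 and the hydroxylase genes Cyp26a1 and Cyp26b1 rose. Dhrs3 rose 5.96-fold, Cyp26a1 3.38-fold and Cyp26b1 1.61-fold over DMSO, while Rdh10 fell slightly and Cyp26c1, Rdh11, Aldh1a1, Aldh1a2, Aldh1a3 and Lrat did not pass the test. In ATRA against DMSO, 3 of the 10 enzymes were higher and 1 lower at an adjusted p below 0.05 in limma with Benjamini-Hochberg adjustment over all genes, against 6.26% of all genes higher and 7.05% lower. The median absolute log2 change was 0.23 over the 10 enzymes and 0.09 over all genes. Cell type markers moved in that comparison too. Of 8 pluripotent cell markers 3 were lower, Zfp42 (-0.56 ± 0.06), Sox2 (-0.20 ± 0.06) and Klf4 (-0.19 ± 0.05), and 0 higher, and the list mean per array was 12.75 to 12.78 in DMSO and 12.63 to 12.65 in ATRA. Of 7 measured neural markers 2 were higher, Pax6 (0.70 ± 0.09) and Elavl3 (0.55 ± 0.04), and 1 lower, Map2 (-0.42 ± 0.09), with a list mean of 8.17 to 8.24 in DMSO and 8.33 to 8.34 in ATRA. Of 10 fibroblast markers 3 were lower, Dcn (-0.41), S100a4 (-0.40) and Thy1 (-0.36), and 1 higher, Loxl1 (0.23). Of 8 blood and endothelium markers 1 was higher, Pecam1 (0.73), and 1 lower, Cdh5 (-0.30). Among 8 primitive streak and mesoderm markers 1 was lower, Lhx1 (-0.695), as was 1 of 5 measured trophoblast markers, Ascl2 (-0.94). The part of these markers in the enzymes' changes was not tested. In EB against ES, 3 enzymes were higher (Cyp26a1, Rdh10 and Rdh11) and 2 lower (Dhrs3 and Aldh1a1), against 17.8% and 16.9% of all genes, with a median absolute log2 change of 0.24 beside 0.12. In DMSO against EB, Cyp26a1 alone of the 10 was higher and 0 were lower, against 0.537% and 0.211%. In ATRA against EB, 3 were higher and 1 lower, against 7.79% and 10.6%. In ATRA against ES, 5 were higher and 2 lower, against 17.5% and 19.1%, and in DMSO against ES, 3 were higher and 3 lower, against 18.4% and 20.6%. These 6 comparisons share arrays and are not independent of one another.

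**Figure D1:**
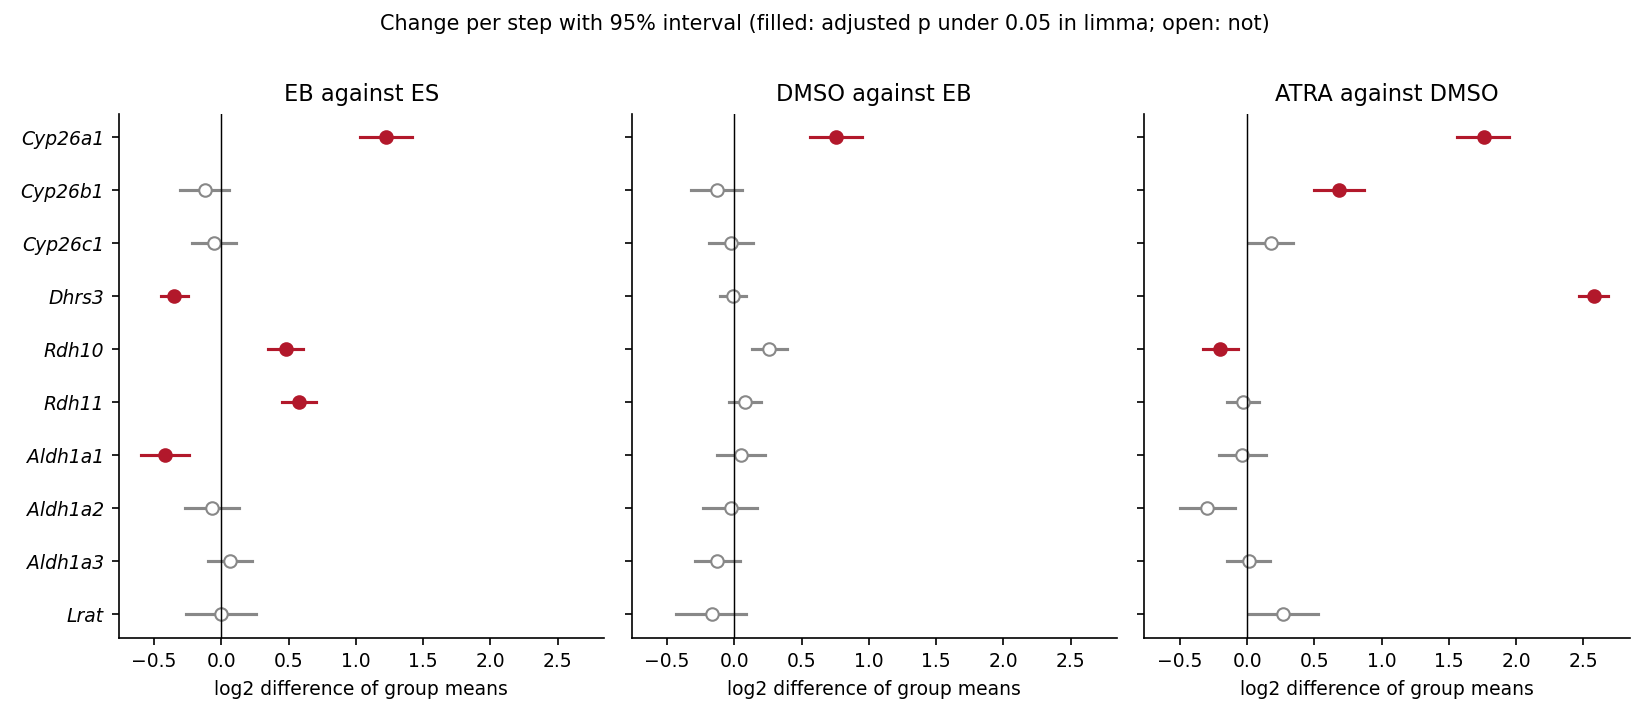
Log2 difference of group means (x axis) for each of the 10 enzyme genes (y axis) in 3 comparisons, with the 95% interval from limma as the bar and filled points where the adjusted p was below 0.05. The points for Dhrs3 at 2.58, Cyp26a1 at 1.76 and Cyp26b1 at 0.69 lie to the right of 0 in ATRA against DMSO, and Rdh10 lies to the left at -0.20.

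Rdh10 encodes the main retinol dehydrogenase of the mouse embryo and catalyses the first, reversible step of synthesis. Its log2 values were 9.23, 9.18 and 9.21 in ES, 9.65, 9.75 and 9.67 in EB, 9.96, 9.84 and 10.04 in DMSO, and 9.79, 9.79 and 9.66 in ATRA. All ES arrays lay below all others, all DMSO arrays lay above all EB and all ATRA arrays, and EB and ATRA overlapped. From ES to EB it rose by 0.48 ± 0.06 (log2 difference ± SE, n = 3 per group), which is 1.40-fold with a limma adjusted p of 3.58e-05. The further difference of 0.26 ± 0.06 between DMSO and EB did not pass the test, at an adjusted p of 0.0666. It passed among genes above the median level (adjusted p 0.0138), with an intensity trend (0.0171) and without DMSO 2 (0.0439). The other 21 of 24 alternatives left it uncalled.

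Against DMSO, Rdh10 fell by 0.20 ± 0.06 after ATRA (1.15-fold, limma adjusted p 0.0409), so that ATRA and EB differed by 0.06 ± 0.06 (adjusted p 0.587). The order of its levels was ES, EB, ATRA, DMSO, and only EB and ATRA were neighbours that did not pass the test. The fall was at the edge of the threshold. It kept its call in 10 of 24 alternatives, over which the log2 difference ran from -0.25 to -0.15 and the adjusted p from 0.0125 to 0.174. The call was lost when ES 3 (adjusted p 0.0577), EB 3 (0.0541), DMSO 1 (0.115), DMSO 3 (0.156), ATRA 1 (0.0647), ATRA 2 (0.067) or ATRA 3 (0.174) was left out, and with quantile normalization (0.0823). The change of Rdh10 after ATRA differed from its change between EB and DMSO by -0.46 ± 0.10 (limma adjusted p 0.0198). That contrast was meant for enzymes called in both comparisons, and Rdh10 was not called in DMSO against EB. The DMSO arrays enter both changes, so they are not independent. How this value depends on the processing is not reported here, and it does not make the fall of Rdh10 firmer.

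Rdh11, though named as a retinol dehydrogenase gene, encodes an enzyme of wide tissue distribution that reduces retinaldehyde. Its log2 values were 10.01, 9.77 and 9.90 in ES, 10.47, 10.49 and 10.46 in EB, 10.54, 10.53 and 10.59 in DMSO, and 10.55, 10.51 and 10.50 in ATRA. The 9 arrays of embryoid bodies lay within a narrow band above all 3 ES arrays. It rose by 0.58 ± 0.06 from ES to EB (1.49-fold, limma adjusted p 5.4e-06). From there on no step passed the test, with 0.08 ± 0.06 for DMSO against EB (adjusted p 0.505) and -0.03 ± 0.06 for ATRA against DMSO (adjusted p 0.789, 95% interval -0.15 to 0.09). A second probe set, annotated to Rdh11 and Pwwp3a together and so not used, ran from 9.29 to 9.60 over the 12 arrays, and its ES and EB arrays overlapped.

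Dhrs3 encodes the retinaldehyde reductase that lowers retinoic acid by returning its precursor to retinol. Its log2 values were 9.38, 9.33 and 9.34 in ES, 9.08, 8.94 and 8.97 in EB, 8.96, 9.04 and 8.96 in DMSO, and 11.54, 11.60 and 11.55 in ATRA. The ATRA arrays stood apart from all 9 others by a gap many times the spread within any group. ES lay just above EB and DMSO, which overlapped. Over DMSO, Dhrs3 rose by 2.58 ± 0.05 (5.96-fold, limma adjusted p 2.53e-11), the third largest rise of the 19938 genes in that comparison. It had fallen by 0.35 ± 0.05 from ES to EB (1.27-fold, adjusted p 8.87e-05), and DMSO against EB gave -0.01 ± 0.05 (adjusted p 0.934). Dhrs3 was thus lower in bodies than in ES cells without added ATRA and 4.64-fold higher than in ES cells with it. Over the alternatives and with each array left out in turn, its rise after ATRA stayed between 2.56 and 2.60.

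**Figure D2:**
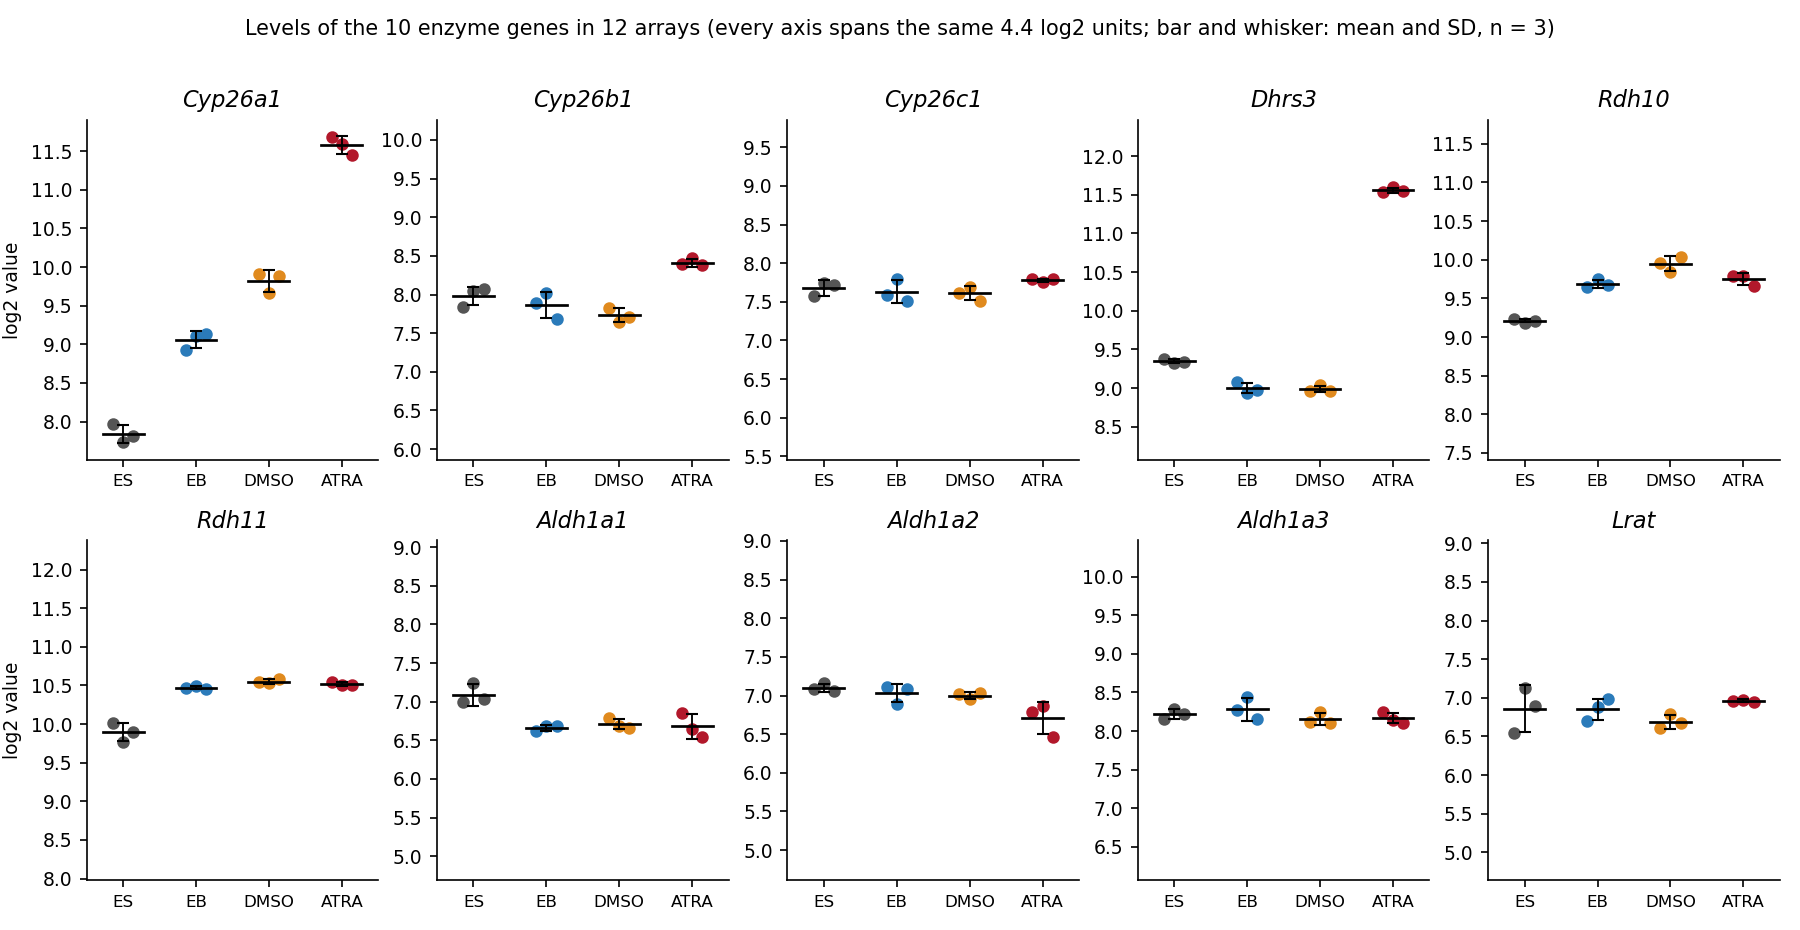
Log2 value of each of the 10 enzyme genes (one panel each, y axes of equal span) in every array of the ES, EB, DMSO and ATRA groups (x axis), with a bar at the mean and a whisker of 1 SD, n = 3. Cyp26a1 climbs from 7.84 in ES to 11.58 in ATRA over all 4 groups, Dhrs3 is near 9 until it reaches 11.56 in ATRA, and the Aldh1a genes and Lrat stay within 0.42 or less between group means.

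Aldh1a2, Aldh1a1 and Aldh1a3 encode the retinaldehyde dehydrogenases that commit retinaldehyde to retinoic acid; Aldh1a2 is the main one of the early mouse embryo, where mesoderm expresses it. The Aldh1a2 log2 values were 7.08, 7.16 and 7.06 in ES, 7.11, 6.89 and 7.09 in EB, 7.02, 6.95 and 7.03 in DMSO, and 6.79, 6.86 and 6.46 in ATRA. The 3 ATRA arrays were the lowest of the 12, with ATRA 3 the lowest of them, and EB overlapped both ES and DMSO. Against DMSO the difference was -0.30 ± 0.09 (1.23-fold), which did not pass the test at a limma adjusted p of 0.0555, although the groups did not overlap. It passed with an intensity trend (adjusted p 0.0436), with array weights (0.0281), and without EB 2 (0.0432) or ATRA 2 (0.029). Without ATRA 3 the Aldh1a2 difference shrank to -0.17 (adjusted p 0.181), the smallest of the alternatives, and 18 of the 23 alternatives left it uncalled. Against EB it fell by 0.32 ± 0.09 (adjusted p 0.029), a call kept in 16 of 23 alternatives. That call was lost without EB 1 (0.1), EB 3 (0.101) or ATRA 3 (0.0909). It was also lost with all probe sets tested (0.0574), with the 2 groups fitted alone (0.0836) and at the stricter thresholds. Against ES, Aldh1a2 fell by 0.40 ± 0.09 (1.32-fold, limma adjusted p 0.00468). The order of levels was ATRA, DMSO, EB, ES, and no neighbouring pair in it passed the test.

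Aldh1a1, the family member known from adult liver, retina and stem cells, had log2 values of 6.99, 7.24 and 7.03 in ES, 6.62, 6.68 and 6.69 in EB, 6.79, 6.69 and 6.66 in DMSO, and 6.85, 6.65 and 6.54 in ATRA. ES was the highest group and overlapped none of the others, which overlapped one another. It fell by 0.42 ± 0.08 from ES to EB (1.34-fold, limma adjusted p 0.00139), and ATRA against DMSO gave -0.04 ± 0.08 (adjusted p 0.829, 95% interval -0.21 to 0.14). Its neighbour on chromosome 19, the close paralogue Aldh1a7, was also lower in EB, by 0.32 ± 0.08 (adjusted p 0.00838), and how far probes of either gene detect the other was not tested.

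Aldh1a3, whose enzyme acts in the eye, nasal region and other epithelia, ran from 8.10 to 8.44 over all 12 arrays. Its groups overlapped in the 3 steps described and group means spanned 0.13, the narrowest of the 10 genes. ATRA against DMSO gave 0.01 ± 0.07 (limma adjusted p 0.95), with a 95% interval of -0.15 to 0.17. In ATRA against DMSO none of the 3 Aldh1a genes was therefore called, and the 95% intervals of that comparison reach at most 0.50 in size on the log2 scale.

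Cyp26a1 encodes the chief retinoic acid hydroxylase of the early embryo, and among the 10 genes its group means had the widest span, 3.73. Its log2 values were 7.97, 7.73 and 7.82 in ES, 8.93, 9.11 and 9.14 in EB, 9.91, 9.66 and 9.88 in DMSO, and 11.68, 11.59 and 11.45 in ATRA. The groups stood in the order ES, EB, DMSO, ATRA with no overlap between any neighbours. Each of these steps passed the limma test. The rise was 1.22 ± 0.09 from ES to EB (2.33-fold, adjusted p 4.06e-07), 0.75 ± 0.09 from EB to DMSO (1.69-fold, adjusted p 0.0093) and 1.76 ± 0.09 from DMSO to ATRA (3.38-fold, adjusted p 9.07e-08).

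From ES to ATRA the level of Cyp26a1 differed 13.3-fold, the second largest rise among the genes measured in that comparison. The step after ATRA was larger than the step between EB and DMSO by 2.01-fold (95% interval 0.67 to 1.34 on the log2 scale, limma adjusted p 0.00252). Over the alternatives the rise after ATRA ran from 1.68 to 1.82 and kept its call in all 24. The smaller step, DMSO against EB, lost its call without EB 1 (0.69, adjusted p 0.0602), DMSO 1 (0.71, 0.0788) or DMSO 3 (0.72, 0.0518). Endoderm markers moved with that step: 4 of 12 were higher in DMSO than in EB and 0 lower, against 0.537% and 0.211% of all genes. Their list mean per array ran from 10.30 to 10.47 in EB and from 10.65 to 10.82 in DMSO. Those calls depended on single arrays too, since 0 of all genes were called without EB 1 or DMSO 1, and 2 without DMSO 3. The part of endoderm markers in the Cyp26a1 result was not tested. In ATRA against DMSO, 5 endoderm markers were lower and 1 higher, against 7.05% and 6.26% of all genes, with a list mean of 10.48 to 10.63 in ATRA.

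The RefSeq promoter window of Cyp26a1 is shown because the gene responds to added retinoic acid and because a pair of receptor half-sites can be read in it. The windows of Dhrs3 and Cyp26b1, the other enzymes that rose, are shown for comparison. Each is the 250 bases before the annotated start in build GRCm38.p6, 5′ to 3′ on the gene's strand: Cyp26a1 at chr19:37697558-37697807 on the plus strand, Dhrs3 at chr4:144892577-144892826 on the plus strand (the first of its 3 windows) and Cyp26b1 at chr6:84593811-84594060 on the minus strand. Capitals mark the half-sites of a direct repeat.
Cyp26a1: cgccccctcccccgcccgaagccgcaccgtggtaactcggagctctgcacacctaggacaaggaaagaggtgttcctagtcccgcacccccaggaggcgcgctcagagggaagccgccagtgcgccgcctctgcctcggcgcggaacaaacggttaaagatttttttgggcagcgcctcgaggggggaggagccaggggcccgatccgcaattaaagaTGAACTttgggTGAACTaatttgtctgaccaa
Dhrs3: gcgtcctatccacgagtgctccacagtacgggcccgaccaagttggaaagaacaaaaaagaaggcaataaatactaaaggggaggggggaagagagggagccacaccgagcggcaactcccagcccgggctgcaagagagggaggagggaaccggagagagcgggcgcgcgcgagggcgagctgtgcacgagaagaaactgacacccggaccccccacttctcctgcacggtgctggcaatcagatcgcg
Cyp26b1: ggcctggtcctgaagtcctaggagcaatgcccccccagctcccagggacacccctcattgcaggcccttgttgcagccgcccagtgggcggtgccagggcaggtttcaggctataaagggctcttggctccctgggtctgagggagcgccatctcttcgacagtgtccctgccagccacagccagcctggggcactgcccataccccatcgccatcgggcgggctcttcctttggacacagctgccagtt

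The search took as a half-site AGGTCA or AGTTCA or GGGTCA or GGTTCA on either strand, and as a repeat 2 half-sites on the same strand with 1, 2 or 5 bases between them; half-sites within a repeat also count as half-sites. It covered 250 bases before to 50 bases after each start. In Cyp26a1 the repeat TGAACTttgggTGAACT, with 5 bases between half-sites, lies at positions -32 to -16 from the start (chr19:37697776-37697792), and the opposite strand reads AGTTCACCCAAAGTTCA. Of the 32851 windows of the table, 32 (0.0974%) held a repeat spaced by 5, 0.268% one spaced by 2, 0.222% one spaced by 1, and 43.7% at least 1 half-site. The 12 windows of the 8 enzymes found in the table held 1 repeat in all, that of Cyp26a1. Lone half-sites occurred in the windows of Rdh11 (2) and Aldh1a1 (1). The windows of Dhrs3 and Cyp26b1 held none of these letters, which says nothing of receptor binding elsewhere at those genes.

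Cyp26b1, the hydroxylase known from the limb, hindbrain and fetal testis, had log2 values of 7.84, 8.04 and 8.07 in ES, 7.89, 8.02 and 7.68 in EB, 7.83, 7.65 and 7.71 in DMSO, and 8.39, 8.47 and 8.38 in ATRA. The ATRA arrays were the 3 highest of the 12 and the other groups overlapped along the order DMSO, EB, ES. Over DMSO it rose by 0.69 ± 0.09 (1.61-fold, limma adjusted p 0.000163), between 0.65 and 0.73 with each array left out in turn. Its differences of -0.12 ± 0.09 from ES to EB (adjusted p 0.318) and -0.13 ± 0.09 from EB to DMSO (adjusted p 0.479) did not pass, though it was lower in DMSO than in ES by 0.25 ± 0.09 (adjusted p 0.0338). That last call was kept in 14 of 23 alternatives. It was lost without ES 2 (0.0969), ES 3 (0.121), DMSO 2 (0.115) or DMSO 3 (0.0876). Other losses included median centring (0.0555) and the test over all probe sets (0.059). Cyp26b1 thus shared the rise after ATRA with Cyp26a1 but not its rise from ES to EB. With array weights Cyp26b1 was called lower in EB than in ES (-0.25, limma adjusted p 0.0102). The other 22 of 23 alternatives left that difference uncalled.

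Cyp26c1 is the third member of the family and the gene next to Cyp26a1 on chromosome 19, with no other protein-coding gene between them. Its log2 values were 7.57, 7.75 and 7.72 in ES, 7.59, 7.79 and 7.51 in EB, 7.62, 7.69 and 7.51 in DMSO, and 7.80, 7.76 and 7.79 in ATRA. The ATRA values lay just above all DMSO and ES values and overlapped EB. The difference from DMSO, 0.18 ± 0.08 (1.13-fold, 95% interval 0.01 to 0.34), did not pass the test at a limma adjusted p of 0.164 (0.0493 with array weights), and no other of its comparisons was called. The interval for Cyp26c1 and the 1.56 to 1.95 interval for its neighbour Cyp26a1 did not overlap.

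Lrat, which esterifies retinol for storage, was measured at 6.55, 7.13 and 6.90 in ES, 6.70, 6.88 and 6.98 in EB, 6.61, 6.79 and 6.67 in DMSO, and 6.96, 6.97 and 6.94 in ATRA. The ES replicates spread most, with an SD of 0.30, and their range held every other array. ATRA lay above DMSO without overlap, yet the difference of 0.27 ± 0.12 did not pass the test (limma adjusted p 0.184). It passed with array weights (adjusted p 0.0292), with the 2 groups fitted alone (0.00967) and without ES 1 (0.0431), and over all 23 alternatives the adjusted p for Lrat ran up to 0.372. EB against ES gave a difference of 0 to 2 decimals with a 95% interval of -0.26 to 0.26.

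Enzymes with opposed effects on retinoic acid or its precursor can be set against each other within each array. The log2 difference of their probe sets has a zero without meaning, but its shifts between groups have one. Rdh10 minus Dhrs3 averaged -0.14 ± 0.01 in ES, 0.69 ± 0.11 in EB, 0.96 ± 0.14 in DMSO and -1.82 ± 0.07 in ATRA (SD, n = 3). The balance of forward over reverse enzyme mRNA moved 1.78-fold towards Rdh10 from ES to EB and 6.85-fold towards Dhrs3 from DMSO to ATRA. Aldh1a2 and Cyp26a1 act in successive reactions, the making of retinoic acid and its removal. Aldh1a2 minus Cyp26a1 averaged -0.74 ± 0.16 in ES, -2.03 ± 0.20 in EB, -2.82 ± 0.09 in DMSO and -4.87 ± 0.13 in ATRA. This balance moved towards the hydroxylase from each group to the next, by 2.45-fold, 1.72-fold and 4.15-fold in that order. Aldh1a2 itself was not called in any of these comparisons. With Aldh1a3 in place of Aldh1a2 the 3 shifts were 2.23-fold, 1.84-fold and 3.36-fold in the same direction. These shifts restate the changes of the single genes and carry no test.

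**Figure D3:**
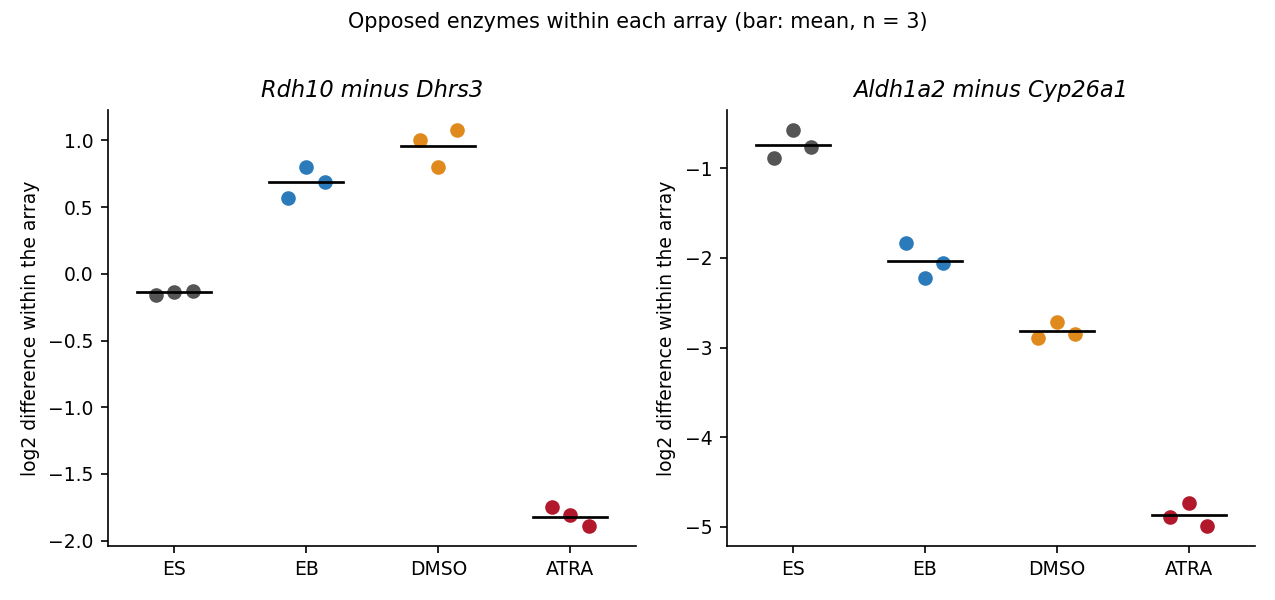
Log2 difference between opposed enzymes within each array (y axis; Rdh10 minus Dhrs3 and Aldh1a2 minus Cyp26a1) by group (x axis), with points for arrays and a bar at the mean, n = 3. Rdh10 minus Dhrs3 climbs to 0.96 in DMSO and drops to -1.82 in ATRA, and Aldh1a2 minus Cyp26a1 descends in every group from -0.74 to -4.87.

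Elsewhere in the retinoid pathway, the calls in ATRA against DMSO can be read beside the 6.26% of all genes higher and 7.05% lower in that comparison. Of 22 other oxidoreductases of retinol, retinaldehyde and carotene, 1 was higher after ATRA, Rdh12 (0.35 ± 0.08, limma adjusted p 0.00897), a photoreceptor retinaldehyde reductase that lies beside Rdh11, and 1 was lower, Dhrs4 (-0.26 ± 0.06, adjusted p 0.00708). Of 8 genes of retinyl ester storage and release, 1 was higher, the hormone-sensitive lipase Lipe (0.49 ± 0.05, adjusted p 2.73e-05). Among 8 measured genes of other cytochromes P450, 1 was lower, Cyp2s1 (-0.69 ± 0.07, 1.61-fold), and 0 were higher, so of the P450 genes counted here a rise was called for Cyp26a1 and Cyp26b1. In that list 1 gene passed an unadjusted p of 0.05. Of 15 other aldehyde dehydrogenases, 2 were higher and 2 lower, led by Aldh1b1 (-0.44 ± 0.07) and Aldh2 (0.29 ± 0.05).

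Of 11 measured binding and uptake genes, 2 were higher after ATRA and 2 lower. Those higher were the retinol transporter Stra6 (1.95 ± 0.06) and Crabp2, which carries retinoic acid to its receptors (1.02 ± 0.07), and those lower were the plasma carrier Ttr (-0.54 ± 0.12) and the fatty acid binding protein Fabp5 (-0.27 ± 0.07). Ttr also stands on the endoderm marker list. Of 7 receptor and corepressor genes, 4 were higher, Rarb (1.68 ± 0.09), Nrip1 (1.06 ± 0.06), Rarg (0.56 ± 0.06) and Rara (0.45 ± 0.05), and 0 lower. The median log2 change was 0.44 over those 7 genes and 0.12 over the 11 carriers, against 0.05 over the other oxidoreductases, 0.04 over the ester genes and 0.01 over all genes. The lists, with Nrip1 among the 7, were chosen with earlier results of these data known, so their medians describe the lists only.

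**Figure D4:**
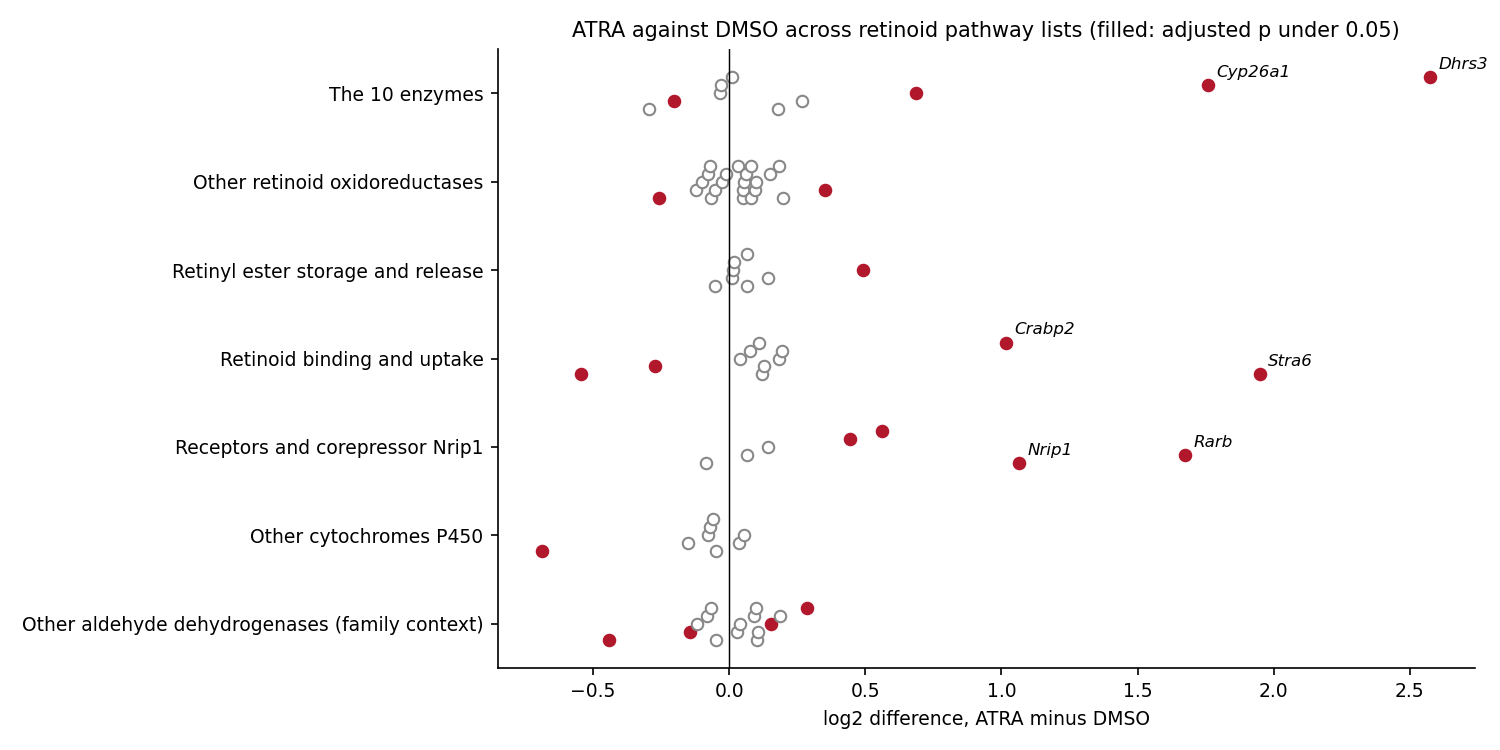
Log2 difference between ATRA and DMSO (x axis) for every measured gene of 7 lists (y axis), one point per gene, filled where the limma adjusted p was below 0.05. The largest rises are Dhrs3 at 2.58 and Cyp26a1 at 1.76 among the enzymes and Stra6 at 1.95 among carriers, while points of the other oxidoreductases lie between -0.26 and 0.35.

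For EB against ES, the same lists stand beside 17.8% of all genes higher and 16.9% lower. Of the 22 other oxidoreductases, 2 were higher and 5 lower, among them the retinol dehydrogenase Dhrs9 (-1.67 ± 0.10, 3.18-fold, limma adjusted p 8.02e-08), the alcohol dehydrogenase Adh7 (-0.87 ± 0.08), Retsat (-0.47 ± 0.06) and, higher, Dhrs4 (0.34 ± 0.06). Dhrs9 and Adh7 thus fell in the comparison in which Rdh10 rose. Ester genes gave 2 higher, Pnpla3 (0.35 ± 0.05) and Pnpla2 (0.19 ± 0.05), and 1 lower, the lipoprotein lipase Lpl (-0.92 ± 0.08). Of the aldehyde dehydrogenases 7 were higher and 2 lower, with Aldh1l1 (0.89 ± 0.07), Aldh6a1 (0.83 ± 0.06), Aldh1l2 (0.83 ± 0.07) and Aldh1b1 (0.65 ± 0.07) leading. The other cytochromes P450 gave 3 higher and 2 lower: Cyp2s1 (1.10 ± 0.07) and the sterol hydroxylase Cyp27a1 (0.64 ± 0.06) rose, and Cyp3a13 (-0.60 ± 0.08) and Cyp1b1 (-0.57 ± 0.10) fell.

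Among the carriers, 2 were higher in EB and 4 lower, with Ttr at 3.19 ± 0.12 and, lower, Crabp1 (-1.47 ± 0.05), Fabp5 (-0.78 ± 0.07) and Rbp7 (-0.63 ± 0.10). Among the receptor genes 1 was higher, Rara (0.37 ± 0.05), and 5 lower, including Rarb (-0.99 ± 0.09), Rxra (-0.48 ± 0.06) and Rxrg (-0.29 ± 0.08). Rarb and Dhrs3, 2 genes known to be induced by retinoic acid, were lower in EB than in ES, whereas Cyp26a1 and Rara were higher. Of the other carrier and receptor genes that rose after ATRA, Stra6 (0.34 ± 0.06) was higher in EB. Crabp2 (-0.40 ± 0.07), Nrip1 (-0.20 ± 0.06) and Rarg (-0.20 ± 0.06) were lower. Fibroblast markers were lower in this comparison too, with a list mean per array of 9.20 to 9.22 in ES and 7.93 to 8.05 in EB, and all 12 endoderm markers were higher, from a list mean of 9.19 to 9.25 in ES. The part of either cell type in the enzymes' changes was not tested. In DMSO against EB, limma called 1 gene of all 6 lists, Ttr (0.97 ± 0.12, adjusted p 0.0119), and the 5 lists with 0 calls held 8 genes at an unadjusted p below 0.05.

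Genes whose pattern over the 12 arrays was most like that of Cyp26a1 and Dhrs3 were taken by Pearson correlation among the 790 genes with group means spanning at least 1. For Cyp26a1 these were Tm4sf5 (r = 0.987), Dmrt1 (0.981), Camk2n1 (0.968), Bhlhe40 (0.968) and Slc26a2 (0.965). Their group means, like those of Cyp26a1, stood in the order ES, EB, DMSO, ATRA, with spans of 1.16 to 1.64 beside 3.73. For Dhrs3 they were Porcn (r = 0.994), Nrip1 (0.99), Tmem229b (0.99), Tmem253 (0.983) and Sema3e (0.981), with spans of 1.02 to 1.35 beside 2.58. All of these arrays share processing, and the 4 groups set most of each correlation, so the values describe likeness of pattern only.

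**Figure D5:**
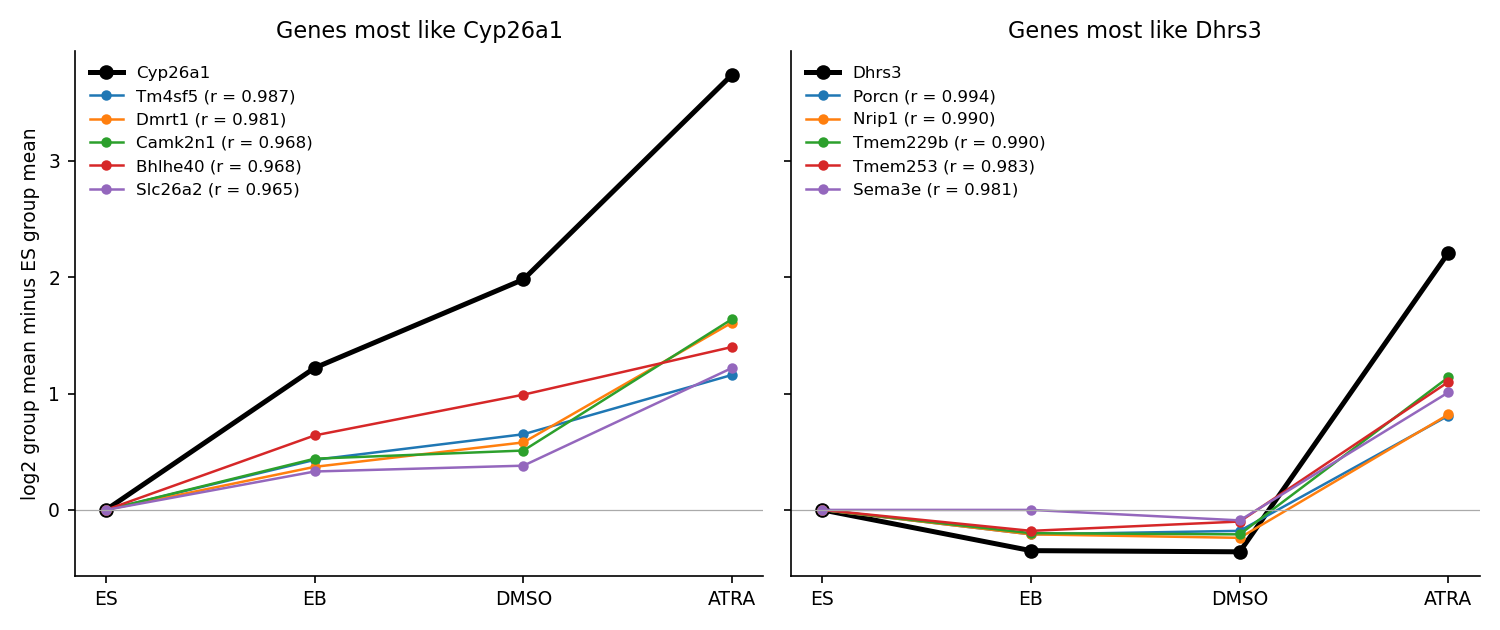
Group mean minus ES group mean on the log2 scale (y axis) over the 4 groups (x axis) for Cyp26a1 and Dhrs3 in black and the 5 genes most like each in colour, with Pearson r over 12 arrays in the legend. Lines beside Cyp26a1 climb at each step, and lines beside Dhrs3 stay near or below 0 until the ATRA group.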

How the data were processed

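Gene expression was measured on 12 one-colour Affymetrix arrays, 3 per group, with probe made from 300 ng of total RNA, per the labels' protocols. The authors summarised each array to 1 value per probe set, on what the deposited values show to be a log2 scale, before deposit. Their background correction and normalization were not stated in the labels or headers. Of 35556 probe sets, 21789 were annotated to 1 gene symbol, 1621 to several and 12146 were not listed; 21698 of the single-symbol sets had a gene ID in the RefSeq table of GRCm38.p6, and no symbol changed. Each gene was represented by the brightest, over the 12 arrays, of its probe sets with 1 symbol, giving 19938 genes, with no filter and no further normalization. Some genes of the pathway lists are not analysed here.

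One limma model (limma 3.58.1, R 4.3.3) with a mean per group was fitted to all 12 arrays, with Benjamini-Hochberg adjustment over all genes and a threshold of 0.05, after the script was tested on simulated data. The ± values in comparisons are standard errors with 8 residual and 3.93 prior degrees of freedom; 3 arrays per group limit precision. Nothing says that replicates came from separate cultures beyond their label, so p-values measure the spread between these samples. Named genes were the 10 enzymes, up to 4 called genes per pathway list with the smallest adjusted p in ATRA against DMSO and in EB against ES, and the 5 genes most like an enzyme that was called after ATRA and spans at least 1 on the log2 scale (predicted genes left out). Aldh1a7, Pwwp3a and, in DMSO against EB, Ttr fall outside that rule, as do the cell type markers named, and were named after their values were seen. Members and lists were chosen with earlier results of these data known. Alternatives covered scaling, filters, probe set choice, prior, weights, threshold, arrays in the fit and a replicate block. Promoter sequences are from RefSeq (GRCm38.p6), 8 of the 10 enzymes matching.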

Additional observations from a re-analysis of the deposited data

How the results depend on the processing

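The rises of Dhrs3, Cyp26a1 and Cyp26b1 after ATRA kept direction and call in all alternatives that tested them. Main counts of enzymes called were 4 for ATRA against DMSO, 5 for EB against ES, 1 for DMSO against EB, 4 for ATRA against EB, 7 for ATRA against ES and 6 for DMSO against ES. Array weights gave 7 for ATRA against DMSO. A floor of 1.5-fold gave 1 for EB against ES, 2 for ATRA against EB, 3 for ATRA against ES and 3 for DMSO against ES. Genes above the median level (4 enzymes tested) gave 2 for DMSO against EB, 2 for ATRA against EB and 4 for ATRA against ES. An intensity trend gave 2 for DMSO against EB. With each array left out in turn the counts ran from 3 to 5 for ATRA against DMSO, from 0 to 2 for DMSO against EB (0 without EB 1, DMSO 1 or DMSO 3, and 2 without DMSO 2), from 3 to 5 for ATRA against EB and from 5 to 7 for DMSO against ES; the step difference of Cyp26a1 ran from 0.85 to 1.10.

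To look for pairing, the deviations of genes from their group means were correlated between arrays of different groups. Of 18 same-numbered pairs (lowest -0.13), 2 correlated above 0.1: ES with EB for numbers 1 (0.3) and 2 (0.51), not 3 (-0.07). Of 12 arrays, 3 correlated best with their own number. The replicate block gave 3 enzymes for ATRA against DMSO, losing Rdh10 (-0.20, adjusted p 0.0672), and 5 for EB against ES. It gave 62 genes for DMSO against EB, not 149.

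Signs that turned were all of differences not called. With each array left out, ATRA against DMSO ran from -0.12 to 0.03 for Aldh1a1 and from -0.03 to 0.05 for Aldh1a3; EB against ES from -0.13 to 0.01 for Cyp26c1, from -0.01 to 0.13 for Aldh1a3 and from -0.16 to 0.13 for Lrat; DMSO against EB from -0.08 to 0.06 for Cyp26c1, from -0.04 to 0.03 for Dhrs3 and from -0.10 to 0.01 for Aldh1a2; ATRA against EB from -0.07 to 0.08 for Aldh1a1; and ATRA against ES from -0.06 to 0.23 for Lrat. Array weights gave 0.0 for Aldh1a3 in ATRA against DMSO, 0.02 for Cyp26c1 in DMSO against EB and 0.0 for Aldh1a1 in ATRA against EB. In EB against ES, Lrat gave 0.0 with quantile normalization and 0.02 with median centring, which gave 0.01 for Dhrs3 in DMSO against EB. With ES 2 and EB 2 both left out, chosen after seeing the data, EB against ES gave 0.03 for Aldh1a2 and 0.12 for Lrat, and DMSO against EB 0.06 for Cyp26c1. The cause was not tested.

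Counts over all genes moved most for DMSO against EB, from 149 genes to 0 without EB 1 or DMSO 1, 2 without DMSO 3 and 761 among genes above the median level (626 with the trend, 476 over all probe sets, 253 with quantile normalization, 237 without ES 1, 25 with the 2 groups alone, 18 with the 1.5-fold floor, 5 at an adjusted p under 0.01). Array weights gave 4311 genes in place of 2655 for ATRA against DMSO and 11052 in place of 7306 for ATRA against ES. The 1.5-fold floor gave 342 for ATRA against DMSO, 1433 for EB against ES, 372 for ATRA against EB, 1501 for ATRA against ES and 1644 for DMSO against ES, and an adjusted p under 0.01 gave 1605 for ATRA against DMSO and 2126 in place of 3673 for ATRA against EB. Median centring moved the share of calls that were higher from 47.9% to 58.6% in ATRA against ES, from 47.2% to 58.3% in DMSO against ES and from 71.8% to 87.0% in DMSO against EB, where quantile normalization gave 57.7%. The probe sets of Cyp26b1, Cyp26c1, Aldh1a1, Aldh1a2, Aldh1a3 and Lrat did not lie above the median level of all genes. Low probe sets limit what could be detected, and a detection call was not analysed here.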
